A study of Mus musculus with 2 samples.

Results

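The genes described here are the constant genes of the T-cell receptor gamma and delta chains, Tcrg-C1 (ENSMUSG00000076749), Tcrg-C2 (ENSMUSG00000076752), Tcrg-C4 (ENSMUSG00000076757) and Trdc (ENSMUSG00000104876). They are 4 of the 32285 gene rows of the deposited matrices, taken by name, and every accessibility peak within 50 kb of their intervals was taken with them. RNA and chromatin accessibility were measured in the same nuclei of sorted mouse intestinal effector T cells, with 1 library per genotype. The knockout library came from CD4creZfp362flox/flox mice, in which Cre recombinase under Cd4 regulatory sequence deletes Zfp362, a zinc-finger gene. Zfp362flox/flox mice, with the same floxed alleles and no Cre, gave the control library. All mice were 26 to 33 weeks old, colon and small intestine were pooled, and the sort kept CD4+CD44+CD62L- cells without CD8a, CD11c, CD45R or F4/80. The design text names 7 mice and does not say whether this is the number per genotype, so animals cannot be told apart. With 1 library per genotype no test across samples exists. Parentheses give 95% intervals, which cover counting error alone and are not adjusted over genes.

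A T cell carries either an alpha-beta or a gamma-delta antigen receptor, each a dimer that sits with the CD3 chains in the membrane. The variable part of each chain is assembled in the thymus by joining V and J segments, with D segments between them in beta and delta chains. The constant gene lies downstream of the J segments and is spliced to them. In the mouse the gamma locus holds several V-J-C clusters, each with a constant gene of its own, and the delta locus lies inside the alpha locus, so that joining a V-alpha to a J-alpha segment removes the DNA between them, the delta segments included. Constant genes can also be transcribed without a rearranged V segment, which is called germline transcription, and gamma genes can be rearranged and transcribed in alpha-beta T cells. Innate lymphoid cells are lymphocytes without a rearranged antigen receptor. The group 3 type, common in the gut, makes IL-22 and can carry CD4. A molecule counted on a constant gene here shows that the gene was transcribed, and not whether a V segment had been joined to it.

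On the mm10 assembly and in the GENCODE vM21 annotation, Tcrg-C1 lies on the plus strand of chromosome 13 from 19214103 to 19217024, Tcrg-C2 on the minus strand from 19304649 to 19307551 and Tcrg-C4 on the plus strand from 19344558 to 19352756. Trdc lies on the plus strand of chromosome 14 from 54142851 to 54148868, upstream of the J-alpha segments and of Trac, the alpha constant gene, at 54220521 to 54224206. The first exons of the gamma genes have 330 bases each and lie wholly in the coding sequence. Their likeness bears on how well counts of these genes can be kept apart. Over the whole exon Tcrg-C2 differs from Tcrg-C1 at 9 of 330 bases, an identity of 97.3%, and Tcrg-C4 differs at 59 bases, an identity of 82.1%. Over the whole annotated transcripts of 924, 914 and 985 bases, 29.6% of the 50-base stretches of Tcrg-C1 occur unchanged in another gamma constant gene, as do 25.4% of those of Tcrg-C2. No stretch of Tcrg-C4 or of the 3865-base Trdc transcript does. How reads that match more than 1 gene were counted is not given in the sources used here, so counts of Tcrg-C1 and Tcrg-C2 could in part be shared. The populations below differ in opposite directions for these 2 genes. A further gamma constant gene, Tcrg-C3, had 1 molecule in all kept nuclei, in the control library.

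The deposited matrices held 2391 knockout and 4223 control barcodes and 9348999 and 10803590 unique molecular identifiers (UMIs) of RNA. After filtering, 2346 knockout and 4176 control nuclei remained, with median depths of 2301.5 and 2007 UMIs, and 11 barcodes occurred in both libraries. Levels are given as UMIs in every 1000000 UMIs of the population (CPM). Zfp362 itself had 19 UMIs or 7.56 CPM (4.55 to 11.8) in knockout and 39 UMIs or 10.1 CPM (7.16 to 13.8) in control Cd3-positive nuclei, intervals that overlap. In innate lymphoid nuclei it had 3 UMIs or 1.94 CPM (0.400 to 5.66) in the knockout and 16 UMIs or 7.31 CPM (4.18 to 11.9) in the control library. The labels do not say which exons are deleted, so RNA from the rest of the gene does not check the genotype.

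Nuclei were divided by the transcripts of the CD3 chains that accompany every T-cell receptor. Cd3-positive nuclei held at least 2 UMIs of Cd3d, Cd3e and Cd3g together and fewer than 2 of 11 genes used to gate innate lymphoid nuclei (Kit, Ncr1, Arg1, Il1r1, Ddc, Cnr2, Eya1, Palld, Fstl4, Gzmc and Tyrobp). They numbered 709 in the knockout and 1473 in the control library, with median depths of 2668 and 2177 UMIs. Innate lymphoid nuclei held no UMI of the CD3 genes and at least 2 of the gate genes, and numbered 579 and 955, with median depths of 2149 and 2042 UMIs. A further 310 knockout and 295 control nuclei met both conditions, were the deepest at medians of 8159.5 and 5046 UMIs, and were kept apart as dual nuclei. The names were set against genes outside the gates, with the alpha and beta constant genes Trac, Trbc1 and Trbc2 among the T-cell genes. These lists were chosen with earlier results of these data known, so they are not an independent check. Of 11 T-cell genes, all 11 were lower in innate lymphoid nuclei in both libraries by at least 2-fold with an interval excluding no difference, the rule by which a difference is called below where both groups together hold at least 20 UMIs. Themis, a T-cell signalling adaptor, had 63.9 CPM in knockout and 42.5 CPM in control innate lymphoid nuclei, against 723 and 623 CPM in Cd3-positive nuclei. Of 12 innate lymphoid genes, 10 were called higher in both libraries, among them Klrb1b, a killer-cell lectin receptor with 830 and 860 CPM against 25.1 and 13.9 CPM, and Il22, which encodes the cytokine of type 3 cells, while Tox was called lower. Over all genes, the rule called 14.6% higher and 12.1% lower in the knockout and 14.8% higher and 13.4% lower in the control library.

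Tcrg-C1 RNA was higher in innate lymphoid than in Cd3-positive nuclei of both libraries, and Tcrg-C2 RNA was lower, while Tcrg-C4 showed no called difference. Tcrg-C1 had 45 UMIs or 29.1 CPM (21.2 to 38.9) in knockout and 62 UMIs or 28.3 CPM (21.7 to 36.3) in control innate lymphoid nuclei, against 21 UMIs or 8.35 CPM (5.17 to 12.8) in knockout and 30 UMIs or 7.74 CPM (5.22 to 11.1) in control Cd3-positive nuclei. The log2 ratio of innate lymphoid over Cd3-positive nuclei was 1.78 (1.02 to 2.62) in the knockout and 1.86 (1.22 to 2.55) in the control library, and the intervals of the populations did not overlap in either library. Tcrg-C2 had 3 UMIs in knockout innate lymphoid nuclei, all in 1 nucleus, and 1 UMI in control innate lymphoid nuclei, or 1.94 CPM (0.400 to 5.66) and 0.457 CPM (0.0116 to 2.54). Cd3-positive nuclei held 53 Tcrg-C2 UMIs in the knockout and 65 in the control library, or 21.1 CPM (15.8 to 27.6) and 16.8 CPM (12.9 to 21.4). Its log2 ratios were -3.23 (-5.77 to -1.82) and -4.63 (-10.52 to -2.67) in the knockout and the control library. The 2 genes of nearly identical first exon thus separated the populations in opposite directions.

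Tcrg-C4 had 9 UMIs or 5.81 CPM (2.66 to 11) in knockout and 13 UMIs or 5.94 CPM (3.16 to 10.2) in control innate lymphoid nuclei. In Cd3-positive nuclei it had 23 UMIs or 9.15 CPM (5.80 to 13.7) in the knockout and 26 UMIs or 6.71 CPM (4.38 to 9.83) in the control library. The log2 ratios of innate lymphoid over Cd3-positive nuclei, -0.61 (-1.95 to 0.51) and -0.15 (-1.26 to 0.84), both span 0, so a difference was not detectable at this depth. Trdc, the only delta constant gene, had no UMI in 579 knockout innate lymphoid nuclei and 3 UMIs or 1.37 CPM (0.283 to 4.0) in 955 control ones. In Cd3-positive nuclei it had 24 UMIs or 9.54 CPM (6.11 to 14.2) in the knockout and 17 UMIs or 4.39 CPM (2.56 to 7.02) in the control library. Against the level that 3 UMIs would give in the innate lymphoid sum, Trdc was at least 4.93-fold lower in knockout innate lymphoid than in knockout Cd3-positive nuclei. In the control library the log2 ratio was -1.50 (-4.09 to 0.11), whose interval reaches just past 0.

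**Figure D1:**
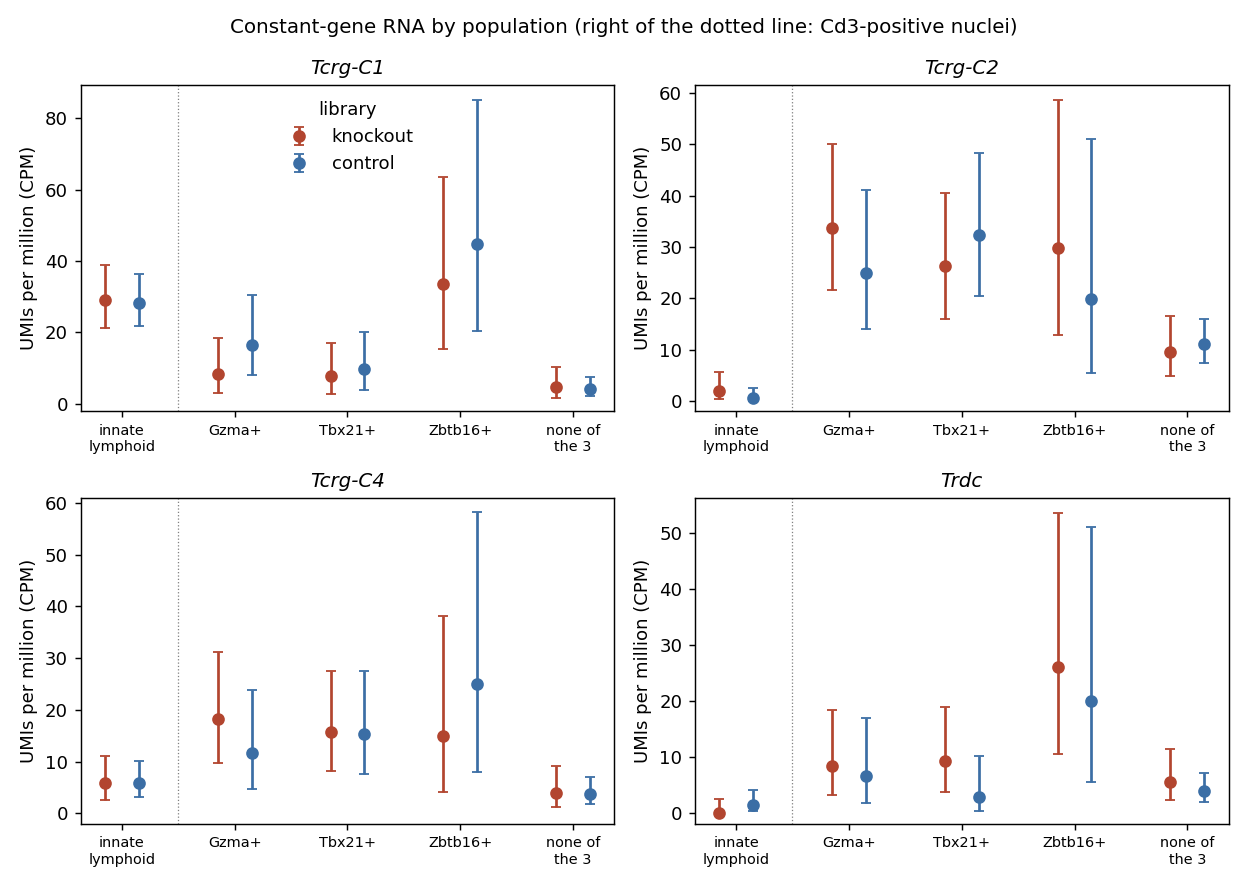
RNA levels of the 4 genes in CPM (vertical axes, linear) in innate lymphoid nuclei and in Cd3-positive nuclei with a UMI of Gzma, Tbx21 or Zbtb16 or none of these, for the knockout library (red, left of each pair) and the control library (blue). Points are sums over the nuclei of 1 library and bars are 95% Poisson intervals. Tcrg-C1 is near 29.1 and 28.3 CPM in innate lymphoid nuclei, where Tcrg-C2 and Trdc are near 0.

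Because deeper nuclei show more genes, shares of nuclei were compared after every nucleus was thinned to 1000 UMIs. Tcrg-C1 was then seen in 4.04% (2.57 to 5.99) of 570 knockout and 2.56% (1.65 to 3.78) of 938 control innate lymphoid nuclei, against 1.14% (0.494 to 2.24) of 701 knockout and 0.413% (0.152 to 0.897) of 1453 control Cd3-positive nuclei. Without thinning, the shares were 6.56% and 6.28% in innate lymphoid nuclei and 2.68% and 1.70% in Cd3-positive nuclei. Tcrg-C2 was seen in 0.175% (0.00444 to 0.974) of thinned knockout innate lymphoid nuclei and in 0% (0 to 0.392) of 938 control ones, where 3 nuclei would give 0.320%. In thinned Cd3-positive nuclei the Tcrg-C2 shares were 2.85% (1.75 to 4.37) in the knockout and 1.79% (1.17 to 2.61) in the control library. The opposite order of Tcrg-C1 and Tcrg-C2 was thus present at equal depth. RNA free in the droplets adds a background to every nucleus. Nuclei with markers of other lineages gave no clean measure of it, since Trac was still seen in 22.1% of the knockout and 23.6% of the control ones. In them Tcrg-C2 was seen in 1.64% (0.199 to 5.80) of 122 knockout and 1.65% (0.341 to 4.74) of 182 control nuclei, and Tcrg-C1 in 0 of 122 and in 1.65% (0.341 to 4.74) of 182. Their median depths before thinning were 1992 and 1814 UMIs.

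Markers of other tissues were present in the innate lymphoid gate. The 10 epithelial genes summed to 15866 CPM in knockout and 5131 CPM in control innate lymphoid nuclei, against 106 and 50.6 CPM in Cd3-positive nuclei. Of the epithelial UMIs of the gate, 24505 of 24569 in the knockout and 11188 of 11236 in the control library came from 2 nuclei per library. Leaving out the 11 knockout and 6 control innate lymphoid nuclei with 10 or more UMIs of epithelial, stromal or B-lineage genes brought the epithelial sum to 44.8 and 22.2 CPM and the B-lineage sum to 192 and 122 CPM, where it had been 3093 and 1122 CPM, and every difference between innate lymphoid and Cd3-positive nuclei given above was called as before. The myeloid list summed to 690 and 720 CPM in innate lymphoid nuclei, against 157 and 160 CPM in Cd3-positive nuclei. Of the 10 myeloid genes, 8 had UMIs in the innate lymphoid nuclei of each library. The others were at 0, C1qa in both libraries, Lyz2 in the knockout and Itgax in the control library. The part of the myeloid genes in these results was not tested.

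Within Cd3-positive nuclei, each member had its highest level in CPM in a set of nuclei marked by an effector or innate-like gene. For Tcrg-C2 and Tcrg-C4 the set with the highest level was not the same in both libraries. For Tcrg-C4 and Trdc with Zbtb16 no order could be read at equal depth. The marks were 1 or more UMIs of Gzma, a granzyme of cytotoxic cells, of Tbx21, which encodes the type 1 factor T-bet, or of Zbtb16, which encodes PLZF, the factor of innate-like T cells. These sets overlap and held 149, 150 and 47 knockout and 208, 219 and 54 control nuclei, against 428 knockout and 1054 control nuclei with none of the 3. Marked nuclei were deeper, with medians of 3330, 3845 and 4639 UMIs in the knockout and 2371.5, 2359 and 2405 UMIs in the control library, against 2384 and 2124.5 UMIs without a mark. In the knockout library B-lineage genes moved with the marks, at 2499, 1773 and 4360 CPM, against 271 CPM in unmarked nuclei. In the control library they were at 200.7, 160 and 264 CPM, against 174 CPM. Their part in the knockout values was tested by leaving out the 13 knockout and 12 control Cd3-positive nuclei with 10 or more UMIs of another lineage, which ended 1 call, given below.

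Tcrg-C2 RNA was higher in Gzma-positive and in Tbx21-positive nuclei of both libraries than in nuclei without a mark. It reached 33.7 CPM (21.6 to 50.1) in knockout and 24.9 CPM (13.9 to 41.0) in control Gzma-positive nuclei, and 26.3 CPM (16.0 to 40.5) and 32.3 CPM (20.5 to 48.4) in Tbx21-positive nuclei. Nuclei without a mark had 9.49 CPM (4.90 to 16.6) in the knockout and 11.1 CPM (7.45 to 16.0) in the control library. Log2 ratios over unmarked nuclei were 1.8 (0.77 to 2.96) in the knockout and 1.18 (0.16 to 2.11) in the control library for Gzma, and 1.44 (0.36 to 2.63) and 1.54 (0.68 to 2.38) for Tbx21. Among all genes, 1.8% of those tested in the knockout and 2.27% in the control library were called higher with Gzma and 1.99% and 2.32% lower, and with Tbx21 1.97% and 1.57% were called higher and 1.84% and 2.59% lower. With Zbtb16, Tcrg-C2 had 8 UMIs or 29.8 CPM (12.9 to 58.7) in the knockout and 4 UMIs or 19.9 CPM (5.43 to 51.1) in the control library. Its log2 ratios over unmarked nuclei were a called 1.68 (0.15 to 3.06) and 0.99 (-1.13 to 2.35), and the knockout call ended under several alternatives, among them without nuclei of other lineages, at 1.60 (-0.03 to 3.02). The Gzma-positive and Tbx21-positive levels of Tcrg-C2 overlap in their intervals in each library. The call with Gzma in the control library ended when nuclei were thinned, at a log2 ratio of 1.09, and the call with Tbx21 in the knockout library ended when a Trac UMI was required, at 1.19, or when dual nuclei were added, at 0.63.

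Zbtb16 marked the nuclei with most Tcrg-C1 RNA. Zbtb16-positive nuclei had 9 Tcrg-C1 UMIs in each library, or 33.5 CPM (15.3 to 63.6) in the knockout and 44.9 CPM (20.5 to 85.2) in the control library, against 4.75 CPM (1.74 to 10.3) and 4.22 CPM (2.11 to 7.55) in unmarked nuclei. The log2 ratio was 3.42 (1.96 to 4.82) in the control library, where 3.2% of genes were called higher and 2.14% lower. It was 2.78 (1.17 to 4.59) in the knockout library, where the 15 UMIs of both groups were too few for a call and the background was 2.83% higher and 3.07% lower. Both Zbtb16-positive levels overlap in their intervals with the innate lymphoid levels of Tcrg-C1, and both lie above those of unmarked nuclei. After thinning, Tcrg-C1 was seen in 4 of 47 knockout Zbtb16-positive nuclei, or 8.51% (2.37 to 20.4). Unmarked knockout nuclei gave 3 of 421, or 0.713% (0.147 to 2.07). Control counts were 2 of 54, or 3.70% (0.452 to 12.7), against 2 of 1038, or 0.193% (0.0233 to 0.694), and these intervals overlap. Gzma-positive nuclei followed with 8.42 CPM (3.09 to 18.3) in the knockout and 16.6 CPM (7.95 to 30.5) in the control library, a log2 ratio over unmarked nuclei of 0.83 (-1.08 to 2.73) and a called 1.98 (0.58 to 3.35), a call that ended with thinning at 2.35 (-1.44 to 6.13), on 2 UMIs in each group. Tbx21-positive nuclei had 7.88 and 9.82 CPM, and neither ratio over unmarked nuclei excluded 0.

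Tcrg-C4 in marked nuclei ran from 14.9 to 18.2 CPM in the knockout and from 11.6 to 24.9 CPM in the control library, against 3.96 CPM (1.28 to 9.23) and 3.84 CPM (1.84 to 7.06) in unmarked nuclei. The difference was called with Tbx21 in the control library, at a log2 ratio of 2.0 (0.63 to 3.40), and the call ended with thinning, at 1.36, and with 4 or more Cd3 UMIs required, at 1.64. The knockout ratios of 2.12 (0.63 to 4.05) with Gzma and 1.92 (0.39 to 3.85) with Tbx21 rested on 18 and 17 UMIs. Trdc was highest with Zbtb16, at 26.1 CPM (10.5 to 53.7) in the knockout and 19.9 CPM (5.43 to 51.1) in the control library, against 5.54 CPM (2.23 to 11.4) and 3.84 CPM (1.84 to 7.06) in unmarked nuclei, with log2 ratios of 2.23 (0.49 to 3.97) and 2.48 (0.25 to 4.17) that rest on 14 UMIs each. With Gzma, Trdc had 8.42 and 6.63 CPM, and with Tbx21 9.19 and 2.81 CPM, all within the intervals of unmarked nuclei or overlapping them. For Tcrg-C4 the ratio with Zbtb16 was 1.95 (-0.42 to 4.13) in the knockout and 2.77 (0.80 to 4.38) in the control library, on fewer than 20 UMIs each. After thinning, Tcrg-C4 was seen in 1 of 47 knockout and 0 of 54 control Zbtb16-positive nuclei, against 2 of 421 and 6 of 1038 unmarked nuclei, so no order can be read at equal depth. Before thinning, the Trdc UMIs of Zbtb16-positive nuclei lay in 4 knockout nuclei, 3 of the UMIs in 1 nucleus, and in 3 control nuclei. After it, Trdc was seen in 1 of 47 and 1 of 54, against 1 of 421 and 6 of 1038 unmarked nuclei, too few to read an order.

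The Zbtb16 mark came with genes of innate-like T cells. Over all genes, 2.83% in the knockout and 3.2% in the control library were called higher with Zbtb16, and 3.07% and 2.14% lower. Of the killer-cell and innate T list, 5 of 7 tested genes were called higher in Zbtb16-positive than in unmarked nuclei of the knockout library and 5 of 10 in the control library, with none called lower. Klrk1, the NKG2D receptor, was at 67.0 CPM in knockout and 135 CPM in control Zbtb16-positive nuclei, against 22.9 and 36.1 CPM in unmarked nuclei. Of 18 genes associated with gamma-delta T cells, 3 of 8 and 3 of 13 tested were called higher with Zbtb16 and none lower. Their list medians were 0.33 and 0.89 on the log2 scale, against -0.01 and 0.01 for all genes tested. The killer-cell and gamma-delta lists share genes, Klrd1 and Xcl1 among them, so their counts are not separate observations. Fcer1g, a signalling chain of Fc and killer receptors, had 63.3 and 49.9 CPM with Zbtb16, against 9.49 and 9.59 CPM in unmarked nuclei. Sox13, a transcription factor of gamma-delta thymocytes, had no UMI in Cd3-positive nuclei of either library.

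Innate lymphoid nuclei with and without a UMI of Ncr1, the NKp46 receptor, did not differ detectably in Tcrg-C1. Ncr1-positive nuclei numbered 38 in the knockout and 40 in the control library and had 3 and 4 Tcrg-C1 UMIs, or 28.7 CPM (5.91 to 83.8) and 39.2 CPM (10.7 to 100), against 29.1 CPM (21.0 to 39.3) and 27.8 CPM (21.1 to 35.9) in Ncr1-negative nuclei. Tcrg-C4 had 4 UMIs in the Ncr1-positive nuclei of each library, or 38.2 CPM (10.4 to 97.9) and 39.2 CPM (10.7 to 100), against 3.46 CPM (1.12 to 8.08) and 4.31 CPM (1.97 to 8.18) in Ncr1-negative nuclei. The log2 ratios of Tcrg-C4, 3.50 (1.13 to 5.68) and 3.28 (1.03 to 5.03), exclude 0 in both libraries and rest on 9 and 13 UMIs in all. In each library the 4 UMIs lay in 3 Ncr1-positive nuclei. After thinning, Tcrg-C4 was seen in 1 of 38 knockout and 0 of 40 control Ncr1-positive nuclei, too few to read an order at equal depth. Trbc1, a beta-chain constant gene, was called higher in Ncr1-positive nuclei, at 392 CPM in the knockout and 304 CPM in the control library, against 127 and 102 CPM in Ncr1-negative nuclei. The rule called 4.16% of genes higher and 3.76% lower in the knockout and 3.59% higher and 2.49% lower in the control library. Trac had 0 UMIs in knockout and 2 in control Ncr1-positive nuclei.

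Alpha and beta constant genes set the frame for these levels. Trac, at 67.2 CPM in knockout and 40.6 CPM in control innate lymphoid nuclei, was at 605 and 680 CPM in Cd3-positive nuclei, log2 ratios of -3.17 (-3.47 to -2.88) and -4.06 (-4.39 to -3.76). Trbc1 and Trbc2 fell less, with log2 ratios from -1.88 to -2.53 over both libraries. Tcrg-C1 was thus the only receptor constant gene of these 7 with a called higher level in innate lymphoid nuclei.

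**Figure D2:**
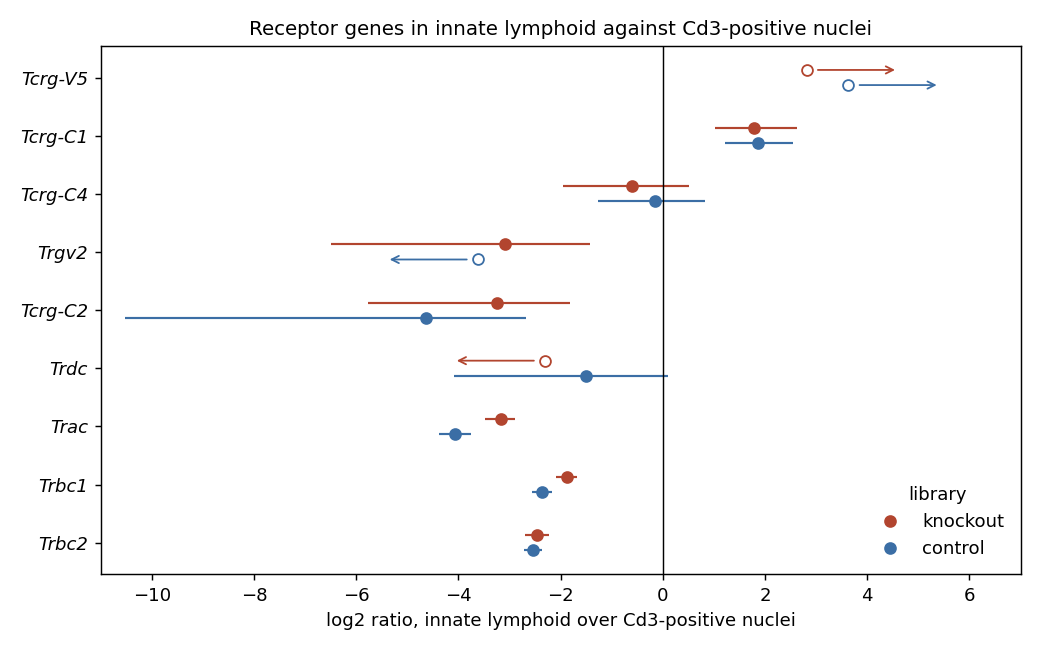
Log2 ratio of innate lymphoid over Cd3-positive nuclei for receptor genes (rows), knockout library in red above the control library in blue. Filled points carry 95% intervals, open points with an arrow show the fold with 3 UMIs set in the empty group, and the vertical line marks no difference. Tcrg-C1 and Tcrg-V5 lie to the right of it in both libraries, and Tcrg-C2, Trgv2, Trac, Trbc1 and Trbc2 to the left.

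The V segments Trgv2 and Tcrg-V5 had the same direction as the constant gene of their own cluster. The files hold 26 gamma and delta segment rows, the 4 constant genes among them, and Trgv2, Tcrg-V5, Tcrg-V1 and Trdv4 are the others with 20 or more UMIs over both libraries. Trgv2 lies on the minus strand at 19336573 to 19337167, upstream of Tcrg-C2 on the same strand, and had 2 UMIs in knockout and 0 in control innate lymphoid nuclei, against 34 UMIs or 13.5 CPM and 65 UMIs or 16.8 CPM in Cd3-positive nuclei. The difference was called in both libraries, with a log2 ratio of -3.09 (-6.49 to -1.42) in the knockout and at least 12.2-fold lower in the control library. Tcrg-V5 lies on the plus strand at 19192278 to 19192725, upstream of Tcrg-C1, and showed the reverse. It had 13 UMIs or 8.39 CPM in knockout and 21 UMIs or 9.59 CPM in control innate lymphoid nuclei, and 0 UMIs in Cd3-positive nuclei of either library, at least 7.04-fold and 12.4-fold higher. The difference was called in the control library alone, since the 13 UMIs of the knockout were under the 20 needed for a call. Tcrg-V1, in the cluster of Tcrg-C4, had 1 UMI in innate lymphoid nuclei of each library, against 7 and 8 UMIs in Cd3-positive nuclei. Trdv4 had 3 and 7 UMIs in innate lymphoid nuclei, against 6 and 5 in Cd3-positive nuclei, with intervals of the ratio that include 0.

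Within Cd3-positive nuclei Trgv2 was higher with Gzma. It had 21.0 CPM in knockout and 39.8 CPM in control Gzma-positive nuclei, against 8.70 and 10.4 CPM in unmarked nuclei, called log2 ratios of 1.26 (0.05 to 2.54) and 1.95 (1.09 to 2.79), where 1.8% and 2.27% of genes were called higher. With Tbx21 the ratios were 0.85 (-0.45 to 2.18), not called, in the knockout and a called 1.22 (0.24 to 2.13) in the control library, where 1.97% and 1.57% of genes were called higher. Trgv2 and Tcrg-C2 were seen in the same nuclei. Of 42 knockout nuclei with a Tcrg-C2 UMI, 10 held Trgv2 (23.8%), against 20 of the 667 other Cd3-positive nuclei (3.0%). In the control library 20 of 51 (39.2%) did, against 31 of 1422 (2.18%). Median depths were 3390 and 2303 UMIs in the nuclei with Tcrg-C2, against 2651 and 2167 UMIs in the others.

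Tcrg-C1 and Zbtb16 shared Cd3-positive nuclei in a similar way. These are the nuclei behind the Tcrg-C1 level of Zbtb16-positive nuclei given above, so this is not a separate observation. Zbtb16 was present in 8 of 19 knockout nuclei with a Tcrg-C1 UMI (42.1%), against 39 of 690 others (5.65%), and in 8 of 25 control nuclei (32.0%), against 46 of 1448 others (3.18%). Their median depths were 3155 and 3425 UMIs, against 2661 and 2167 UMIs in the others. In innate lymphoid nuclei, where Zbtb16 was common, it was present in 14 of 38 knockout nuclei with Tcrg-C1, against 134 of 541 others, and in 16 of 60 control nuclei, against 207 of 895 others. Tcrg-V5 was present in 1 of 38 knockout and 5 of 60 control innate lymphoid nuclei with Tcrg-C1, against 12 of 541 and 16 of 895 others.

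Most nuclei with a member held only 1 of the 4. Among Cd3-positive nuclei with any member, 13 of 83 in the knockout and 7 of 105 in the control library held at least 2, and among innate lymphoid nuclei 2 of 44 and 2 of 74 did. Tcrg-C2 was present in 7 of 21 knockout and 4 of 24 control Cd3-positive nuclei with Tcrg-C4, against 35 of 688 and 47 of 1449 others. Median depths of the Tcrg-C4 nuclei were 4407 and 2404 UMIs, against 2649 and 2172 UMIs in the others.

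Nuclei with Trdc were not set apart by an absence of the alpha chain. Trac was present in 13 of 16 knockout and 13 of 14 control Cd3-positive nuclei with a Trdc UMI, against 507 of 693 (73.2%) and 1041 of 1459 (71.4%) of the others, and Trbc1 in 11 of 16 and 8 of 14. Trdc nuclei were deeper, at medians of 5198 and 3364.5 UMIs, against 2661 and 2172 UMIs, and doublets were not called separately. Cd4 was present in 14 of 16 knockout and 5 of 14 control Trdc nuclei, against 547 of 693 and 647 of 1459 others. Dual nuclei had 7 Trdc UMIs in the knockout and 3 in the control library, or 1.93 CPM (0.775 to 3.97) and 1.57 CPM (0.324 to 4.59). Their Tcrg-C1 levels of 14.3 CPM (10.7 to 18.8) and 16.8 CPM (11.5 to 23.7) lay between those of innate lymphoid and of Cd3-positive nuclei, as did their Tcrg-C2 levels of 10.5 CPM (7.40 to 14.4) and 13.1 CPM (8.47 to 19.3).

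Knockout and control libraries did not differ detectably in the gamma constant genes. The log2 ratio of knockout over control Cd3-positive nuclei was 0.12 (-0.77 to 0.96) for Tcrg-C1, 0.33 (-0.22 to 0.88) for Tcrg-C2 and 0.45 (-0.43 to 1.31) for Tcrg-C4. In innate lymphoid nuclei it was 0.04 (-0.55 to 0.61) for Tcrg-C1 and -0.01 (-1.44 to 1.31) for Tcrg-C4, while Tcrg-C2 and Trdc had too few UMIs there. These intervals leave room for changes of up to about 2-fold or more, so they do not show equal levels. Trdc was the exception in Cd3-positive nuclei, at 9.54 CPM in the knockout and 4.39 CPM in the control library, a called log2 ratio of 1.11 (0.16 to 2.11). Over all genes, 1.17% were called higher in that comparison and 1.2% lower. The 24 knockout UMIs came from 16 of 709 nuclei and the 17 control UMIs from 14 of 1473 nuclei. The interval included 0 when deep nuclei were left out (ratio 1.05), when nuclei were thinned (1.05), when dual nuclei were added (0.53) and when a Trac UMI was required (0.76). No member was called between the libraries in Gzma-positive, Tbx21-positive, Zbtb16-positive or unmarked nuclei or in dual nuclei. The backgrounds there were 2.03% higher and 2% lower with Gzma, 2.02% and 1.53% with Tbx21, 2.96% and 2.94% with Zbtb16, 1.33% and 1.3% in unmarked nuclei and 1.47% in either direction in dual nuclei.

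**Figure D3:**
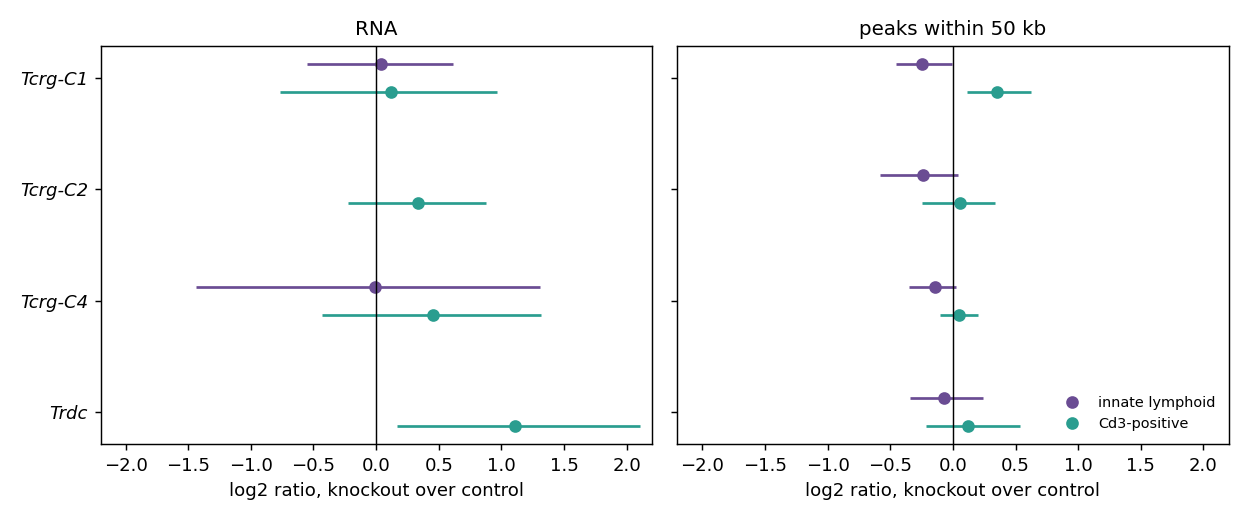
Log2 ratio of knockout over control for each gene's RNA (left) and for the summed peaks within 50 kb (right), in innate lymphoid nuclei (purple, above) and Cd3-positive nuclei (green). Lines are 95% counting intervals, and the RNA of Tcrg-C2 and Trdc in innate lymphoid nuclei is left out for having fewer than 20 UMIs. Trdc RNA in Cd3-positive nuclei, at 1.11, lies farthest from 0.

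Peak counts around Trdc were higher in innate lymphoid than in Cd3-positive nuclei, the direction opposite to that of its RNA. Peak values are scaled in the same way to the population's total over the peaks that the libraries share (peak CPM). Such counts cannot tell closed chromatin from DNA removed by joining a V-alpha to a J-alpha segment, and which applies here was not tested. The 12 shared peaks within 50 kb of Trdc summed to 54.2 peak CPM in knockout and 56.8 in control innate lymphoid nuclei, against 25.5 and 23.5 in Cd3-positive nuclei, log2 ratios of 1.09 (0.72 to 1.41) and 1.27 (0.94 to 1.60). The sum hides a division along the locus. Upstream of Trdc, over it and just past its end, Cd3-positive nuclei had almost no counts. The 2 peaks on Trdc exons, chr14:54146063-54147029 and chr14:54147118-54148025, had 4.15 and 4.15 peak CPM in knockout and 5.58 and 7.73 in control innate lymphoid nuclei, against 0.464 and 0.811 in knockout and 0.193 and 0.193 in control Cd3-positive nuclei. The peak between Trdj2 and Trdc, chr14:54137968-54139023, had 6.62 and 6.87 peak CPM in knockout and control innate lymphoid nuclei, against 0.464 and 0.193 in Cd3-positive nuclei, with called log2 ratios of 3.68 (1.84 to 7.0) and 4.85 (2.54 to 10.5).

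The highest of these peaks in the knockout library lies 3′ of Trdc at chr14:54152597-54153517, in no annotated gene. It had 11.7 peak CPM in knockout and 7.44 in control innate lymphoid nuclei, against 0.580 and 0.193 in Cd3-positive nuclei, log2 ratios of 4.21 (2.46 to 6.45) and 4.96 (2.66 to 10.6). At 3 peaks 31 to 41 kb upstream, chr14:54101864-54102861, chr14:54108357-54109363 and chr14:54110840-54111775, innate lymphoid nuclei had 4.92 to 6.15 peak CPM in the knockout and 3.29 to 4.01 in the control library, against 0 to 0.232 and 0 to 0.579 in Cd3-positive nuclei. In all, 3 fragments would give 0.696 peak CPM in knockout and 0.579 in control Cd3-positive nuclei, so at most of these peaks the Cd3-positive level was at or under what 3 fragments give.

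Among the J-alpha segments farther downstream the direction was mixed. The peak over Traj49, chr14:54168424-54169310, had 3.38 peak CPM in knockout and 5.01 in control innate lymphoid nuclei, against 1.74 and 2.12 in Cd3-positive nuclei, with log2 ratios of 0.95 (-0.42 to 2.49) and a called 1.23 (0.02 to 2.34). Over Traj42, innate lymphoid nuclei had 2.46 peak CPM in the knockout and 3.86 in the control library, against 2.67 and 3.47 in Cd3-positive nuclei. At the 3 peaks beyond it the innate lymphoid values lay below the Cd3-positive ones in both libraries, though not all were called. The peak over Traj22, chr14:54197252-54198167, had 1.08 peak CPM in knockout and 0.716 in control innate lymphoid nuclei, against 5.10 and 5.50 in Cd3-positive nuclei, called log2 ratios of -2.16 (-4.22 to -0.70) and -2.82 (-5.11 to -1.07). At chr14:54178876-54179847 the values were 2.00 and 5.87 against 7.65 and 6.66, called lower in the knockout library alone, at -1.89 (-3.25 to -0.63). Of the peaks with at least 20 fragments, 3 of 8 were called higher and 3 lower in knockout innate lymphoid nuclei, and 5 of 9 higher and 1 lower in control ones. Over all peaks, 19.9% were called higher and 15.4% lower in the knockout and 21.3% and 17.7% in the control library. In a window of 100 kb, which takes in more of the J-alpha side and Trac, the log2 ratio of the sums was -0.10 in the knockout and -0.20 in the control library. In the knockout library the population sums of RNA and of peaks thus differed in opposite directions. Trdc had 0 UMIs in the innate lymphoid nuclei whose peaks covered it, and 24 UMIs in Cd3-positive nuclei whose peaks over it held 4 and 7 counts. These UMIs came from 16 of 709 nuclei and the peak counts were summed over all 709. The sums therefore do not show Trdc RNA without accessibility in single nuclei.

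**Figure D4:**
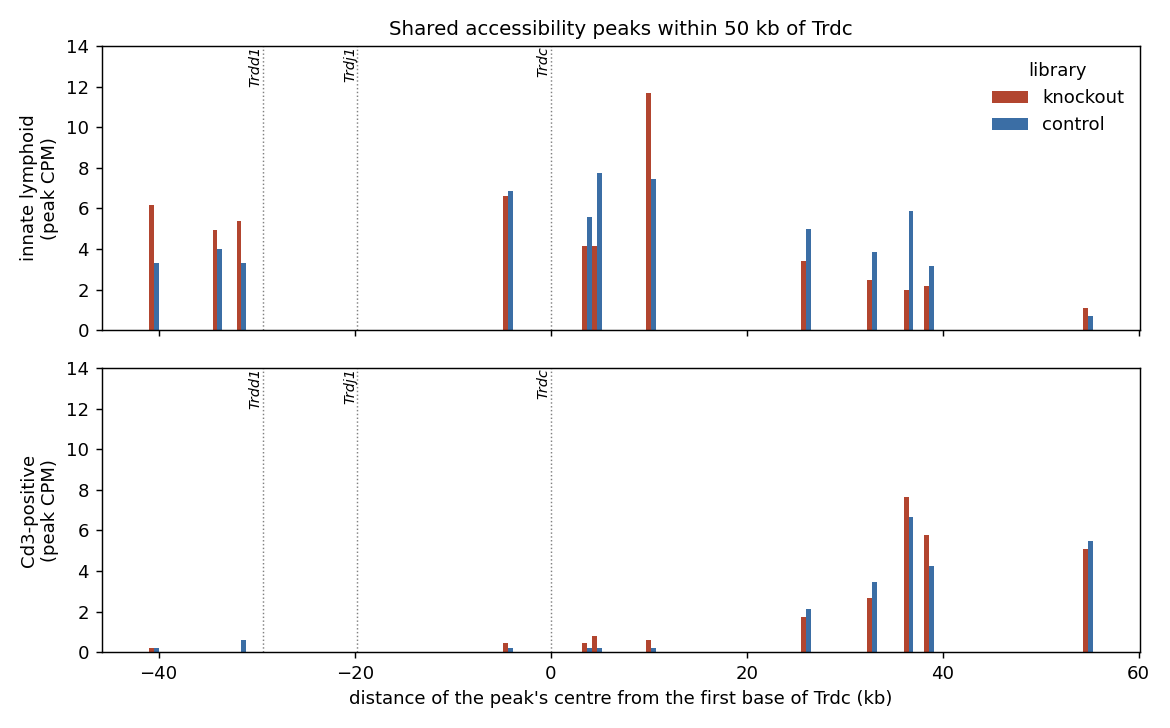
Shared peaks within 50 kb of Trdc, placed by the distance of their centres from its first base in kb, with heights in peak CPM on a common linear axis for innate lymphoid nuclei (top) and Cd3-positive nuclei (bottom). Knockout bars are red and control bars blue. All bars from the left edge past Trdc exceed 1 peak CPM in innate lymphoid nuclei alone, and the last 3 bars at the right, among the J-alpha segments, are higher in Cd3-positive nuclei in both libraries.

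The gamma locus had 28 shared peaks within 50 kb of its 3 genes. Those within 50 kb of Tcrg-C1 summed to 87.5 peak CPM in knockout and 104 in control innate lymphoid nuclei, against 59.9 and 47.0 in Cd3-positive nuclei, log2 ratios of 0.55 (0.32 to 0.81) and 1.15 (0.92 to 1.40). Windows of Tcrg-C2, 0.12 (-0.22 to 0.42) and 0.42 (0.13 to 0.70), and of Tcrg-C4, -0.16 (-0.35 to 0.00387) and 0.03 (-0.12 to 0.20), moved less, and these windows share peaks. The peak with the largest difference in peak CPM between the populations in the Tcrg-C1 window of both libraries, chr13:19193650-19194426, lies between Tcrg-V5 and the J segment of the Tcrg-C1 cluster. This peak had 14 and 14.3 peak CPM in knockout and control innate lymphoid nuclei, against 0.464 and 0.386 in Cd3-positive nuclei, log2 ratios of 4.75 (3.03 to 8.05) and 5.05 (3.31 to 8.33). Beside it, each library had a further peak not shared by overlap, at 1.38 peak CPM in knockout innate lymphoid and 0.580 in knockout Cd3-positive nuclei, and at 4.44 and 0.386 in those of the control library.

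The direction of this peak was that of Tcrg-V5 and Tcrg-C1 RNA. Nearer to Tcrg-C1, the peak chr13:19212053-19212848 had 3.38 and 5.15 peak CPM in innate lymphoid nuclei, against 0.927 and 0.772 in Cd3-positive nuclei, and downstream chr13:19221902-19222796 had 9.23 and 13.6, against 4.41 and 4.24. Upstream, chr13:19181998-19182927 had much the same values, at 19.7 and 19.5 peak CPM in innate lymphoid nuclei and 20.3 and 19.7 in Cd3-positive nuclei, with log2 ratios of -0.04 (-0.53 to 0.43) and -0.01 (-0.47 to 0.45). A peak on a Tcrg-C4 exon, chr13:19351861-19352623, had 1.85 and 7.44 peak CPM in innate lymphoid nuclei, against 0.232 and 0.386 in Cd3-positive nuclei, and was called in the control library, at 4.11 (2.04 to 6.10). The peak over the end of Tcrg-C2, chr13:19303983-19304984, had 3.54 and 4.87 peak CPM in innate lymphoid nuclei and 3.01 and 2.22 in Cd3-positive nuclei, so the near absence of Tcrg-C2 RNA from innate lymphoid nuclei had no like loss of counts there. At chr13:19300259-19301103, 3′ of Tcrg-C2, innate lymphoid nuclei had 4.62 and 4.15 peak CPM and Cd3-positive nuclei 6.84 and 8.10, log2 ratios of -0.56 (-1.51 to 0.37) and -0.95 (-1.94 to -0.11). Of peaks with at least 20 fragments, 3 of 18 were called higher in knockout and 11 of 21 in control innate lymphoid nuclei, and 0 were called lower in either library. The knockout share is below the 19.9% of all peaks called higher there, and the control share is above the 21.3% of its own.

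**Figure D5:**
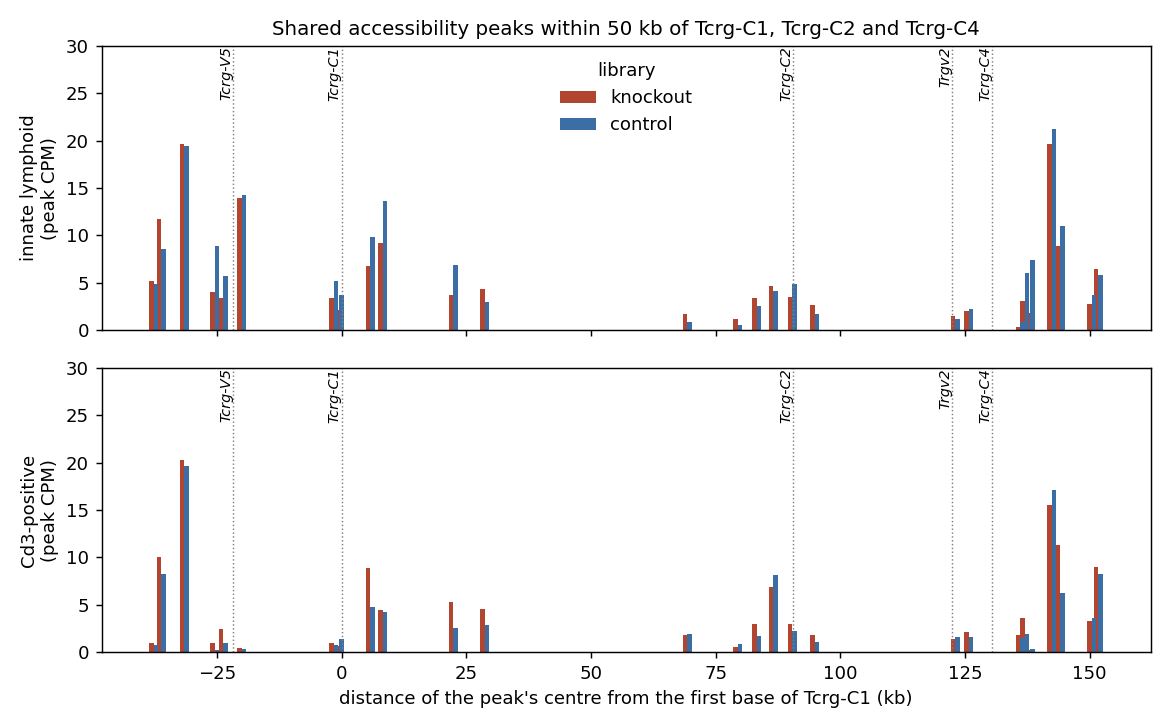
Shared peaks within 50 kb of Tcrg-C1, Tcrg-C2 and Tcrg-C4, placed by the distance of their centres from the first base of Tcrg-C1 in kb, with heights in peak CPM on a common linear axis for innate lymphoid nuclei (top) and Cd3-positive nuclei (bottom), knockout in red and control in blue. Dotted lines mark the lowest coordinate of each named gene, and the Stard3nl promoter peak of the Tcrg-C4 window, at 74.3 to 90.7 peak CPM, is left out. The peak beside Tcrg-V5 stands at 14 and 14.3 in innate lymphoid nuclei and under 1 in Cd3-positive nuclei.

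Between the libraries, the peaks around Tcrg-C1 moved in opposite directions in the 2 populations. Knockout Cd3-positive nuclei had 59.9 peak CPM and control ones 47.0, a log2 ratio of 0.35 (0.11 to 0.62), and knockout innate lymphoid nuclei had 87.5 and control ones 104, a log2 ratio of -0.25 (-0.46 to -0.00588). Both sizes are under 2-fold, and the second interval included 0 in a window of 100 kb or without deep nuclei. Summed peaks of Tcrg-C2, Tcrg-C4 and Trdc had intervals that include 0 in both populations. Single peaks were called at 1 of 15 higher in Cd3-positive nuclei (background 1.35%), chr13:19235934-19236987 with 5.33 peak CPM in the knockout and 2.60 in the control library. In innate lymphoid nuclei 2 of 22 gamma peaks and 1 of 10 Trdc peaks were called lower (background 1.01%). They are chr13:19188043-19189152 with 4.0 peak CPM in the knockout and 8.87 in the control library, the Tcrg-C4 exon peak with 1.85 and 7.44, and chr14:54178876-54179847 with 2.00 and 5.87.

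Genes known for control of these loci or for gamma-delta T cells were called in both directions. Of all genes, 14.6% in the knockout and 14.8% in the control library were called higher in innate lymphoid nuclei and 12.1% and 13.4% lower. Of 25 regulators, 3 of 24 tested were called higher in innate lymphoid nuclei in each library, and 8 in the knockout and 9 in the control library were called lower, with medians of -0.70 and -0.54 against -0.09 over all genes. The share of regulators called higher is thus no larger than that of all genes, and the share called lower is larger in both libraries. Nfil3, a factor needed for innate lymphoid development, had 313 CPM in knockout and 365 CPM in control innate lymphoid nuclei, against 111 and 130 CPM in Cd3-positive nuclei. Il7r, whose signal opens the gamma locus in developing T cells, had a log2 ratio of 1.14 (1.03 to 1.25) in the knockout and 1.25 (1.16 to 1.34) in the control library. Bcl11b, a T-lineage factor, was lower, at 51.7 and 31.5 CPM in innate lymphoid nuclei against 407 and 413 CPM in Cd3-positive nuclei, and Myb had 4.52 and 1.83 CPM against 27.8 and 52.1 CPM. The recombinase genes Rag1 and Rag2 had no UMI in either population.

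The gamma-delta list split as well, with 6 of 16 tested genes called higher and 4 lower in knockout innate lymphoid nuclei, and 8 of 17 higher and 4 lower in control ones. Its medians were 0.14 and -0.20. Blk, a Src-family kinase of B cells and IL-17-producing gamma-delta cells, had 79.4 CPM in knockout and 90.9 CPM in control innate lymphoid nuclei, against 1.99 and 1.03 CPM in Cd3-positive nuclei. Fcer1g had 428 and 521 CPM against 17.1 and 11.6 CPM. Ccr9, a gut-homing receptor, was lower, at 27.1 and 14.6 CPM against 181 and 120 CPM, and Cd27, a co-stimulatory receptor, at 14.2 and 11 CPM against 94.6 and 118 CPM. Several of these genes are also expressed by innate lymphoid cells in general, so their levels do not name gamma-delta cells. Of the killer-cell and innate T list, 3 of 11 and 3 of 13 tested genes were called higher in innate lymphoid nuclei. Klrk1 was among those called higher, with log2 ratios of 2.49 and 1.97. In each library 6 genes of the list were called lower. Gzmk, a granzyme, was called lower, with 1 and 4 UMIs in innate lymphoid nuclei against 41 and 104 in Cd3-positive nuclei.

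Knockout over control, neither list moved much in Cd3-positive nuclei. None of 15 tested gamma-delta genes was called, and 1 of 24 regulators was, Lef1, at 62.8 CPM in the knockout and 132 CPM in the control library, a log2 ratio of -1.07 (-1.34 to -0.81). In innate lymphoid nuclei Id3, an inhibitor of E proteins, was called higher, at 14.9 CPM against 4.57 CPM, and Etv5 lower, at 8.39 CPM against 19.2 CPM. The background was 2.6% of genes called higher and 1.12% lower. Cd4, the sort marker, had 817 CPM in knockout and 277 CPM in control Cd3-positive nuclei, against 289 and 282 CPM in innate lymphoid nuclei, and Cd8a had no UMI in these populations.

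The genes whose levels most resembled each member over 12 points (6 separate populations in each library) were taken from 9896 genes by Pearson correlation of log2 CPM plus 10, as a description only, since points of 1 library share its depth and preparation and many genes were searched. Tcrg-C1 was most like Peak1 (r = 0.94), Klf9 (0.93), Mef2a (0.92), Spry2 (0.90) and Tor1aip1 (0.90). For Tcrg-C2 they were Nlk (0.97), Lin54 (0.97), Mctp2 (0.97), Dhx36 (0.96) and Sft2d1 (0.95). Tcrg-C4 was followed by Gtpbp1 (0.93), Rmdn2 (0.88), Lgals3bp (0.86), Tex2 (0.84) and Zfp950 (0.83). Trdc was followed by Uchl5 (0.935), Aamdc (0.93), 4930599N23Rik (0.93), E2f4 (0.93) and Pds5a (0.91). With some points resting on as few as 0 to 9 UMIs of a member, these likenesses are loose.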

How the data were processed

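Nuclei of sorted intestinal CD4+ effector T cells were profiled with the 10x Multiome kit, per the labels' protocols. The deposited matrices hold whole-number UMI counts per gene and counts per peak, made by the authors. The file headers name Cell Ranger ARC 2.0.1 and the submitters' processing notes name mm10. The deposited peak lists differ between the libraries. Of the deposited peak counts, 90.7% in the knockout and 91.7% in the control library were even, so peak intervals were computed on fragments (counts divided by 2, rounded up).

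Barcodes below 500 UMIs or 300 genes, or with mitochondrial genes above 10% of UMIs, were dropped (45 knockout and 47 control). No doublet caller was run. Nuclei positive for both gates were kept apart, and deep nuclei were left out as an alternative. UMIs were summed per population and library. Log2 ratios used a pseudocount of 0.5 and the exact conditional 95% interval of 2 Poisson counts. Shares have Clopper-Pearson intervals. A difference was called at 2-fold or more, with the interval excluding no difference and at least 20 UMIs or fragments in both groups together. Intervals cover counting error only. Peaks overlapping by 1 base were shared (85.8% of knockout and 87.7% of control peaks). Zero counts were set to 3 for folds against an empty group. Computations used Python 3.11.15, numpy 2.4.6, scipy 1.17.1, pandas 2.3.3 and matplotlib 3.10.9, and were tested on simulated data. Exon comparisons and intervals come from GENCODE vM21. Sequences and 1 marker gene are not reported here.

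Named were the 4 members, locus segments with 20 or more UMIs, the 2 genes at either end of each list's ratios in part, and the 5 genes most like each member. Other genes named, Il22, Il7r, Lef1, Trbc1 and Sox13 among them, were chosen after their values were seen. The members, gates and lists were chosen with earlier results of these data known.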

Additional observations from a re-analysis of the deposited data

Results flagged for a closer look

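The summed peaks within 50 kb of Tcrg-C1 differed between the libraries in opposite directions in the 2 populations. The log2 ratio of knockout over control was 0.351 (0.111 to 0.623) in Cd3-positive nuclei, with 59.9 peak CPM in the knockout and 47.0 in the control library. It was -0.25 (-0.46 to -0.00588) in innate lymphoid nuclei, with 87.5 and 104 peak CPM. With 1 library per genotype the difference between these ratios was not tested. Of the 12 peaks, chr13:19219397-19220290 had 8.93 peak CPM in knockout and 4.82 in control Cd3-positive nuclei, and 6.77 and 9.88 in innate lymphoid nuclei. Tcrg-C1 RNA had ratios of 0.12 and 0.04 in the same populations.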

How the results depend on the processing

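No paired analysis was possible because each genotype has 1 library. The differences of Tcrg-C1 and Tcrg-C2 between innate lymphoid and Cd3-positive nuclei were called in both libraries under all alternatives run, as was Trdc in the knockout library. The log2 ratio of Trdc in Cd3-positive nuclei, knockout over control, lost its call without deep nuclei (1.05), with thinning (1.05), with dual nuclei added (0.53) and with Trac required (0.76). Thinning also moved Tcrg-C1 knockout over control to 1.44 in Cd3-positive and 0.83 in innate lymphoid nuclei, and Tcrg-C4 innate lymphoid over Cd3-positive in the knockout to 0.59, and ended the control calls of Tcrg-C1 (2.35) and Tcrg-C2 (1.09) with Gzma and of Tcrg-C4 with Tbx21 (1.36, and 1.64 from 4 Cd3 UMIs). For Tcrg-C2 in the knockout, the call with Tbx21 ended with dual nuclei (0.63) and with Trac (1.19). The Zbtb16 call ended from 1 Cd3 UMI (1.45), without deep nuclei (2.03), thinned (2.06), with dual nuclei (0.34), with Trac (1.39) and without nuclei of other lineages (1.60), so it rests on few UMIs. Trdc innate lymphoid over Cd3-positive in the control gained a call from 4 gate UMIs (-2.25) and with Trac (-1.66). The alternatives on dual nuclei, Trac and other lineages were chosen after seeing the data. Summed peaks depended on the window. At 100 kb the Trdc ratios of innate lymphoid over Cd3-positive reversed (-0.10 knockout, -0.20 control), Tcrg-C1 fell to 0.17 in the knockout, and knockout over control in innate lymphoid nuclei was -0.15 for Tcrg-C1 and -0.20 for Tcrg-C2. At 25 kb Tcrg-C2 in the control reversed to -0.11 and Tcrg-C4 reached 0.49, and knockout over control in innate lymphoid nuclei was 0.21 for Tcrg-C2 and -0.35 for Tcrg-C4. Without deep nuclei these were -0.14 for Tcrg-C1 and -0.34 for Tcrg-C2, and scaling by all peaks gave Tcrg-C4 -0.16 in the knockout, its interval now excluding 0. Windows hold different peaks by construction, and the cause of the other changes was not tested. Depth limits all members, which had 28 to 166 UMIs per library.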
